A study of Mus musculus with 14 samples.

Results

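Expression of 10 genes for secreted factors that act on blood and lymph vessels was followed in Ocy454 cells, a mouse line with osteocyte-like properties. The genes were chosen by name, *Vegfa*, *Vegfb*, *Vegfc*, *Vegfd* (listed under its older symbol *Figf* in the differentiation table), *Pgf*, *Angpt1*, *Angpt2*, *Angptl2*, *Angptl4* and *Adm*. All 10 were found among the 39179 genes of the differentiation table and among the 35886 genes of the sorted libraries. All groups came from this single line, which carries a thermosensitive large T antigen and was grown at 33 °C to confluence and then kept at 37 °C. No drug or knockdown entered these libraries. The differentiation experiment had 2 biologic replicates at each of days 1, 7, 10 and 14 at 37 °C. No label separates the day from the culture or harvest of its 2 libraries, so these cannot be told apart. The sorting experiment had 3 replicates each of CD61 high and CD61 low cells, the live cells with the 10% highest and the 10% lowest CD61 signal after 17 days at 37 °C. Per the study's methods both gates were taken from the same 3 separately collected groups of cells. A cultured line without vessels, blood flow or mineralized bone around it limits what these groups can model.

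Osteocytes are cells embedded in bone that sense load and signal to other cells, and bone formation depends on an ingrowing blood supply. VEGF-A binds the receptors VEGFR1 and VEGFR2 on endothelium and drives the sprouting of vessels, whereas VEGF-B and placental growth factor bind VEGFR1, and VEGF-C and VEGF-D act mainly on lymphatic endothelium through VEGFR3. Angiopoietin-1 stabilizes vessels through the receptor Tie2, angiopoietin-2 mostly opposes it, and adrenomedullin is a vasodilator peptide that also acts on endothelium. *Vegfa* and *Adm* are known targets of the hypoxia-inducible factors (HIF).

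The libraries of the differentiation experiment held 27518605 to 34311238 reads counted on genes, and those of the sort held 18815602 to 19220064 estimated counts. *Itgb3*, the gene for CD61, was measured in CPM, counts scaled to library size. All CPM of the sorted libraries were TMM-normalized, a scaling that adjusts each library size by a factor. The CD61 low replicates had 5.31, 5.54 and 6.10 CPM and the CD61 high replicates 130.1, 100.1 and 103.6 CPM, which matched the labels of the sort. Of 12 osteoblast and osteocyte markers, 10 were above 1 CPM in at least 1 library of each experiment, and *Mepe* and *Fgf23* were not. This list summed to 35639 to 35693 CPM on day 1, 36073 to 36640 on day 7, 26670 to 28690 on day 10 and 29741 to 34918 on day 14, and to 17690 to 21624 in CD61 low and 50273 to 52986 in CD61 high cells, mostly through *Col1a1*. *Dmp1*, a matrix protein gene of osteocytes, was at 0.959 CPM on day 1 and 54.9 CPM on day 14. *Col1a1* was at 34709 and 25243 CPM on these days and *Pdpn* at 28.2 and 19.3 CPM, neither called. *Dmp1*, *Phex*, *Sost*, *Bglap*, *Sp7*, *Alpl* and *Ibsp* were called higher on day 14 than on day 1, where 7.51% of all genes were. No gene of this list was called lower. Of 12 endothelial markers, 9 stayed at or below 1 CPM in every library, and *Emcn*, *Cldn5* and *Sox17* had no read at all. With library totals alone, before TMM factors, 3 reads would be 0.0874 to 0.159 CPM. The endothelial list nonetheless summed to 12.5 to 12.7 CPM on day 1, 16.9 to 18.0 on day 7, 131 to 139 on day 10 and 36.0 to 37.6 on day 14, and to 20.5 to 28.6 in CD61 low and 83.0 to 102.6 in CD61 high cells. At day 10, 127 CPM of this sum was *Vwf*, the von Willebrand factor gene. The pericyte and smooth muscle list summed to 1539 to 1544 CPM on day 1, 378 to 381 on day 7, 237 to 261 on day 10 and 575 to 610.3 on day 14, and to 477 to 491 in CD61 low and 666 to 739.8 in CD61 high cells. *Acta2* made up 1452 CPM of it on day 1 and 194 CPM on day 14, and *Kcnj8* had no read. Between these days *Notch3* went from 65.4 to 218 CPM, *Cspg4* from 22.9 to 176 CPM and *Des* from 0.691 to 3.48 CPM. The fall of *Acta2* and these rises were all called. The chondrocyte list summed to 206 to 208 CPM on day 1, 1192 to 1233 on day 7, 1463 to 1577 on day 10 and 1499 to 1632 on day 14, and to 339 to 429.9 in CD61 low and 1369 to 1716 in CD61 high cells, mostly through *Col11a2*. Osteoclast, macrophage and adipocyte lists had 2 of 7, 2 of 10 and 0 of 7 genes above 1 CPM in any library. The osteoclast genes *Calcr* and *Dcstamp* had no read, but that list summed to 89.9 to 90.0 CPM on day 1 and 60.6 to 63.2 on day 14. Most of this was *Ctsk*, at 87.4 and 61.2 CPM on these days and at 18.6 CPM in CD61 low and 21.2 in CD61 high cells. The macrophage gene *Cd68* was at 1.66 CPM on day 1 and 3.34 on day 14, and at 14.2 CPM in CD61 low and 8.07 in CD61 high cells. The part of these marker levels in the results that follow was not tested.

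Over the days of differentiation *Vegfa* was the member with the largest absolute change in CPM and *Adm* the one with the largest ratio, and both were higher on days 7 and 14 than on day 1 and higher in CD61 high cells. *Angpt1* and *Vegfd* went the other way, lower on days 7 and 14 and lower in CD61 high cells. *Vegfa* lies on the minus strand of chromosome 17 (46327919 to 46343309, GRCm39). Its expression was 54.7 and 53.4 CPM on day 1, 251 and 249 CPM on day 7, 178 and 167 CPM on day 10, and 324 and 333 CPM on day 14. No 2 days overlapped, and day 10 lay between day 1 and day 7. The ratio of mean CPM to day 1 was 4.62 on day 7, 3.20 on day 10 and 6.08 on day 14. The Log2FC, taken on log2(CPM + 1) in limma, was 2.19 (SE 0.039, adjusted p = 2.32e-25), 1.66 (adjusted p = 1.14e-22) and 2.58 (adjusted p = 4.34e-27) at these days, and all 3 were called. Here a gene was called at an adjusted p below 0.01 with a Log2FC above 1 or below -1. Between day 7 and day 10 the Log2FC was -0.53 (adjusted p = 1.78e-11) and between day 10 and day 14 it was 0.92 (adjusted p = 1.81e-16), both inside the Log2FC limit. As in any bulk sample, a change in the share of cells that make a transcript and a change in RNA per cell cannot be told apart.

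In the sorted cells, *Vegfa* was at 259.7, 231 and 242 CPM in CD61 low and at 541, 495 and 500.1 CPM in CD61 high libraries (TMM-normalized). The groups did not overlap, and the CD61 high mean of 512 ± 24.9 CPM was 2.10 times the CD61 low mean of 244 ± 14.4 (SD, n = 3). The Log2FC in edgeR was 1.07 (SE 0.073, adjusted p = 1.78e-06), a call that ended with scaling by library size alone, where it was 0.77 and the median of all genes moved to -0.29. The 250 bases before the first *Vegfa* start site of the RefSeq promoter table, which sits on another build (GRCm38.p6, chr17:46032378-46032627, minus strand), are shown because *Vegfa* had the highest mean per length of the members on day 14 and in both sorted groups. The sequence holds no match on either strand to the core letters of HIF sites, ACGTG or GCGTG, nor to the direct repeat of a PPAR element (DR1).

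Vegfa: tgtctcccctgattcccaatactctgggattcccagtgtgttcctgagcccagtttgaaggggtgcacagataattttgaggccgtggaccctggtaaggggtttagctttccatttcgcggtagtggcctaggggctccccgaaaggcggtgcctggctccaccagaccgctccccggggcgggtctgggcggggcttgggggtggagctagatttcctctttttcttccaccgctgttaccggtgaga

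These letters were searched in windows of 300 bases, 250 before and 50 after a start site, and only the bases before it are printed. Sites further from a start site were not searched. Over all 32851 RefSeq windows, 19.6% held ACGTG, 32.4% held GCGTG, 43.8% held one or the other and 0.0396% held the PPAR repeat, with CACGTG counted once on each strand. Of the members, 7 had 9 windows in the table. A second *Vegfa* window, further downstream at an internal start, held 1 match each to ACGTG and GCGTG. *Vegfb* held 2 matches to GCGTG, 1 of the 2 *Pgf* windows held 1, and no window of *Vegfc*, *Vegfd* or *Angptl2* held either. No member's window held the PPAR repeat. A match is only a run of letters, and none was tested for binding here.

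**Figure D1:**
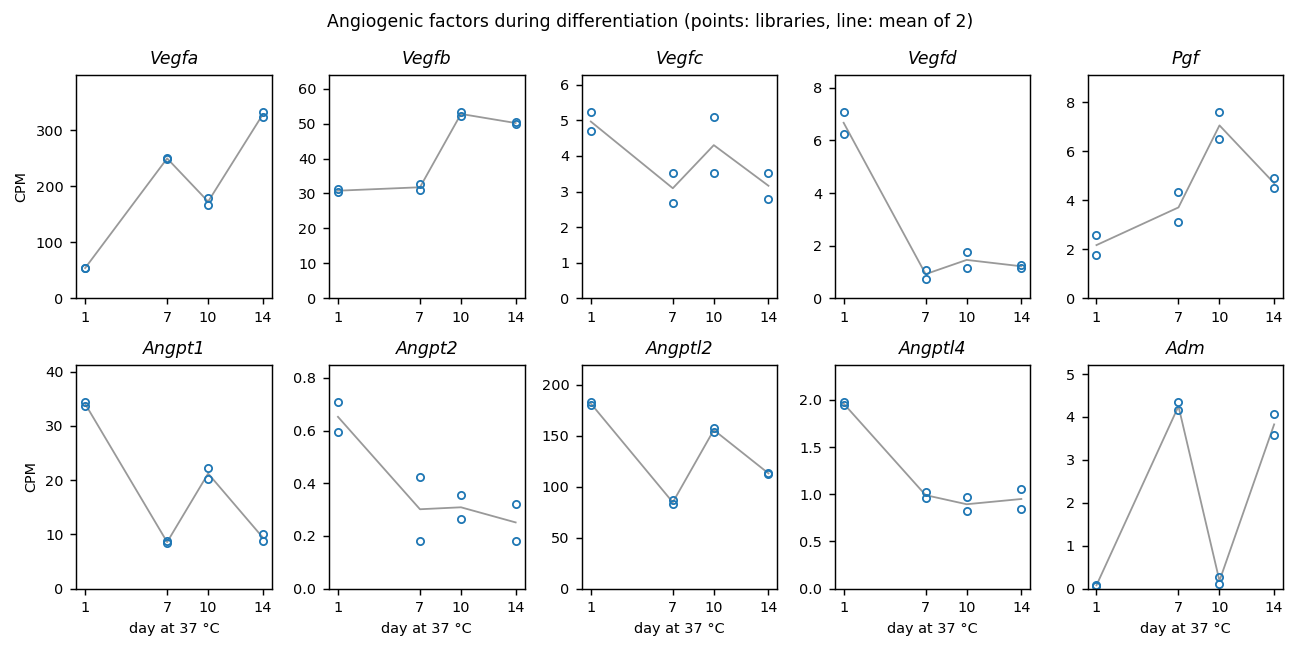
CPM of each of the 10 genes by day at 37 °C, 1 panel per gene with its own axis from 0; points are the 2 libraries of each day and the line joins their means. *Vegfa* and *Adm* are higher on days 7 and 14 than on days 1 and 10, and *Angpt1* and *Angptl2* are lower on days 7 and 14 than on days 1 and 10.

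*Vegfb*, a ligand of VEGFR1 on chromosome 19, did not pass the Log2FC limit in any comparison. It was at 30.3 and 31.3 CPM on day 1 and 30.9 and 32.6 CPM on day 7, and these overlapped. At day 10 it was at 53.4 and 52.1 CPM and on day 14 at 50.3 and 49.97 CPM, above both earlier days in every library. The Log2FC against day 1 was 0.76 on day 10 (SE 0.055, adjusted p = 3.17e-12) and 0.69 on day 14 (adjusted p = 1.85e-11). CD61 low libraries had 127, 129 and 108 CPM and CD61 high libraries 164, 206 and 171 CPM, with no overlap and a Log2FC of 0.57 (SE 0.10, adjusted p = 0.000996 in edgeR).

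*Vegfc*, a lymphatic growth factor gene on chromosome 8, was at 4.69 and 5.24 CPM on day 1, 3.51 and 2.68 on day 7, 3.51 and 5.09 on day 10 and 2.80 and 3.52 on day 14. It was not called at any day, with Log2FC of -0.55, -0.18 and -0.52 against day 1. The sort gave a larger difference. CD61 low libraries had 10.8, 13.6 and 11.4 CPM and CD61 high libraries 2.64, 3.11 and 1.65 CPM, a CD61 low mean 4.83 times the CD61 high mean. The groups were far apart, with a Log2FC of -2.27 (SE 0.21, adjusted p = 1.39e-05 in edgeR).

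*Vegfd*, the other ligand of VEGFR3, lies on the X chromosome (163156240 to 163185646, plus strand, GRCm39). It was at 6.26 and 7.09 CPM on day 1, 0.750 and 1.09 on day 7, 1.15 and 1.77 on day 10 and 1.17 and 1.27 on day 14. Every later library was below both libraries of day 1, and the 3 later days overlapped in part. The Log2FC was -2.002 (SE 0.15, adjusted p = 4.37e-12), -1.65 (adjusted p = 1.6e-10) and -1.79 (adjusted p = 2.69e-11), so *Vegfd* fell at all 3 days. In reads, this was 212 and 226 on day 1 against 25 to 55 in the later libraries. In the sort it had 4.21, 2.44 and 3.17 CPM in CD61 low and 0.587, 1.21 and 1.41 CPM in CD61 high libraries, again without overlap, with a Log2FC of -1.61 (SE 0.33, adjusted p = 0.00252 in edgeR). Its promoter (GRCm38.p6, chrX:164373272-164373521, plus strand) is shown beside that of *Vegfa*, as *Vegfd* was called lower than day 1 at every later day. It had 42.4% G and C over these 250 bases, the lowest of the 9 member windows, against 59.2% for *Vegfa*.

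Vegfd: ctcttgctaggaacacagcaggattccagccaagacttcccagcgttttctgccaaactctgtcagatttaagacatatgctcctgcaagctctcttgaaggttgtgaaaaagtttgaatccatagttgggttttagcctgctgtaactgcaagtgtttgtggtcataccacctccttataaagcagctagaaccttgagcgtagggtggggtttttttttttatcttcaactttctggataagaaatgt

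*Pgf*, placental growth factor on chromosome 12, was at 1.77 and 2.57 CPM on day 1, 4.32 and 3.10 on day 7, 6.50 and 7.61 on day 10 and 4.49 and 4.91 on day 14. It was highest on day 10 in both libraries. *Pgf* rose on day 10 (Log2FC 1.35, SE 0.14, adjusted p = 2.78e-09), the one day at which it was called. At day 14 its Log2FC was 0.86 on log2(CPM + 1), and a count test in edgeR on the recovered reads gave 1.15 (adjusted p = 1.37e-05), past the limit, as did limma without day 1 replicate 2 (1.04). In the sort the direction was opposite, with 7.08, 5.21 and 5.91 CPM in CD61 low and 3.58, 3.22 and 2.18 CPM in CD61 high libraries. The groups did not overlap and the Log2FC was -1.02 (SE 0.22, adjusted p = 0.00312 in edgeR). This call was lost without CD61 low replicate 1 (-0.90) or without CD61 high replicate 3 (-0.84).

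*Angpt1*, the Tie2 agonist on chromosome 15 (42288058 to 42540417, minus strand, GRCm39), was at 33.7 and 34.4 CPM on day 1, 8.73 and 8.41 on day 7, 20.2 and 22.2 on day 10 and 10.1 and 8.69 on day 14. Day 1 was highest, day 10 came next without overlap, and days 7 and 14 lay lowest. *Angpt1* fell on day 7 (Log2FC -1.87, SE 0.085, adjusted p = 1.72e-16), rose from day 7 to day 10 (1.21, adjusted p = 5.45e-12) and fell from day 10 to day 14 (-1.10, adjusted p = 2.91e-11). The last of these was -0.99 without day 14 replicate 2 and so no longer called. Against day 1 it was lower on day 14 (-1.76, adjusted p = 4.5e-16) and had a Log2FC of -0.66 on day 10. Of 12725 genes tested, 10 (0.0786%) were called lower on day 7, higher again on day 10 and lower again on day 14. *Angpt1* was the member among them. The order counted was that of *Angpt1* itself, so this share is a description and no test. It was counted on log2(CPM + 1) only, and calls of single steps moved with other settings. In the sort, CD61 low libraries had 12.5, 12.2 and 14.4 CPM and CD61 high libraries 4.40, 4.20 and 4.88 CPM. The groups were well separated, with a Log2FC of -1.53 (SE 0.14, adjusted p = 1.15e-05 in edgeR).

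*Angpt2*, the context-dependent Tie2 antagonist, was near the detection limit. It had 24 and 19 reads on day 1, 6 and 12 on day 7, 8 and 11 on day 10 and 11 and 5 on day 14, and never passed the filter for testing. Summed over libraries and set against library totals, day 14 had 0.396 times the rate of day 1, with a 95% exact counting interval of 0.208 to 0.717 that leaves out any spread between replicates. The sorted libraries held 2, 2 and 6 estimated counts in CD61 low and 2, 0 and 0 in CD61 high cells. Of its annotated exon bases, 70.7% also lie in exons of *Mcph1* on the opposite strand, and whether counting used strand is not given in the sources used here, so that the few reads cannot be assigned with certainty.

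*Angptl2*, an angiopoietin-like glycoprotein gene on chromosome 2, had the highest level per length of the members on day 1. It was at 183 and 180.1 CPM on day 1, 86.6 and 82.6 on day 7, 153 and 158 on day 10 and 113 and 113 on day 14. Its days had the order of *Angpt1* by mean, with no overlap between any of them. It fell on day 7 (Log2FC -1.09, SE 0.040, adjusted p = 1.29e-18) and stayed within the limit elsewhere, at -0.22 for day 10 and -0.68 for day 14 against day 1 and 0.87 from day 7 to day 10. The sorted groups overlapped, with 118, 104.4 and 110.2 CPM in CD61 low and 118, 125 and 109 CPM in CD61 high cells. The Log2FC of 0.09 (SE 0.078, adjusted p = 0.383 in edgeR) became -0.21 with scaling by library size alone, so no direction can be given.

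*Angptl4*, an inhibitor of lipoprotein lipase that is a known target of PPAR and HIF, was low throughout, with 67 and 62 reads on day 1, 32 and 29 on day 7, 25 and 30 on day 10 and 29 and 29 on day 14. The later libraries lay below both of day 1. Day 10 had 0.456 times the rate of day 1 (95% exact counting interval 0.326 to 0.63). On log2(CPM + 1) the Log2FC was -0.65 on day 10 (adjusted p = 0.000249) and was not called, while edgeR on the recovered reads gave -1.16 (adjusted p = 0.000434). CD61 low libraries had 1.10, 1.17 and 0.879 CPM and CD61 high libraries 0.997, 0.633 and 1.00 CPM, which overlapped (Log2FC -0.26, SE 0.31, adjusted p = 0.508).

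*Adm* encodes the precursor of adrenomedullin and lies on chromosome 7 (110226858 to 110229027, plus strand, GRCm39). It had 3 and 2 reads on day 1, 145 and 118 on day 7, 8 and 3 on day 10 and 123 and 112 on day 14. In CPM this was 0.0886 and 0.0627, then 4.35 and 4.15, then 0.263 and 0.0967, then 3.58 and 4.07. Days 7 and 14 were thus more than an order of magnitude above days 1 and 10 in every library. The rate on day 7 was 56.0 times that of day 1 (95% exact counting interval 23.7 to 174) and 23.8 times that of day 10 (13.1 to 48.3). *Adm* rose on day 7 (Log2FC 2.29, SE 0.14, adjusted p = 1.35e-13), fell to day 10 (-2.16, adjusted p = 1.51e-12) and rose again to day 14 (2.03, adjusted p = 3.3e-12). The added 1 CPM makes these Log2FC much smaller than the ratios. Among 12725 genes tested, 33 (0.259%) were called in this up, down and up order on log2(CPM + 1), and *Adm* was the member among them. The order counted was that of *Adm* itself, so this share too is a description and no test. The *Vegfa* means also went up, down and up, with both steps after day 7 inside the Log2FC limit.

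In the sorted cells *Adm* was at 2.82, 1.31 and 1.90 CPM in CD61 low and 10.2, 7.77 and 6.41 CPM in CD61 high libraries, a ratio of 4.04 without overlap (Log2FC 2.02, SE 0.27, adjusted p = 0.000177 in edgeR). The annotation places a long noncoding RNA gene on the opposite strand over 31.9% of its exon bases. The *Adm* promoter (GRCm38.p6, chr7:110627407-110627656, plus strand) is shown because it holds 2 matches to GCGTG, both on the reverse strand and so read as CACGC here, at positions -90 to -86 and -54 to -50 from the start site. The matches are in capitals. It holds no ACGTG and no PPAR repeat.

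Adm: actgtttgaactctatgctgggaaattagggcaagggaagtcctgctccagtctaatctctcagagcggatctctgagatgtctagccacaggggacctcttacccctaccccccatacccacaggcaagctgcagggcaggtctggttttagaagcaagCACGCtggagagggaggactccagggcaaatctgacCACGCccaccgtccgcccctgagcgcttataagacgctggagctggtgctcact

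**Figure D2:**
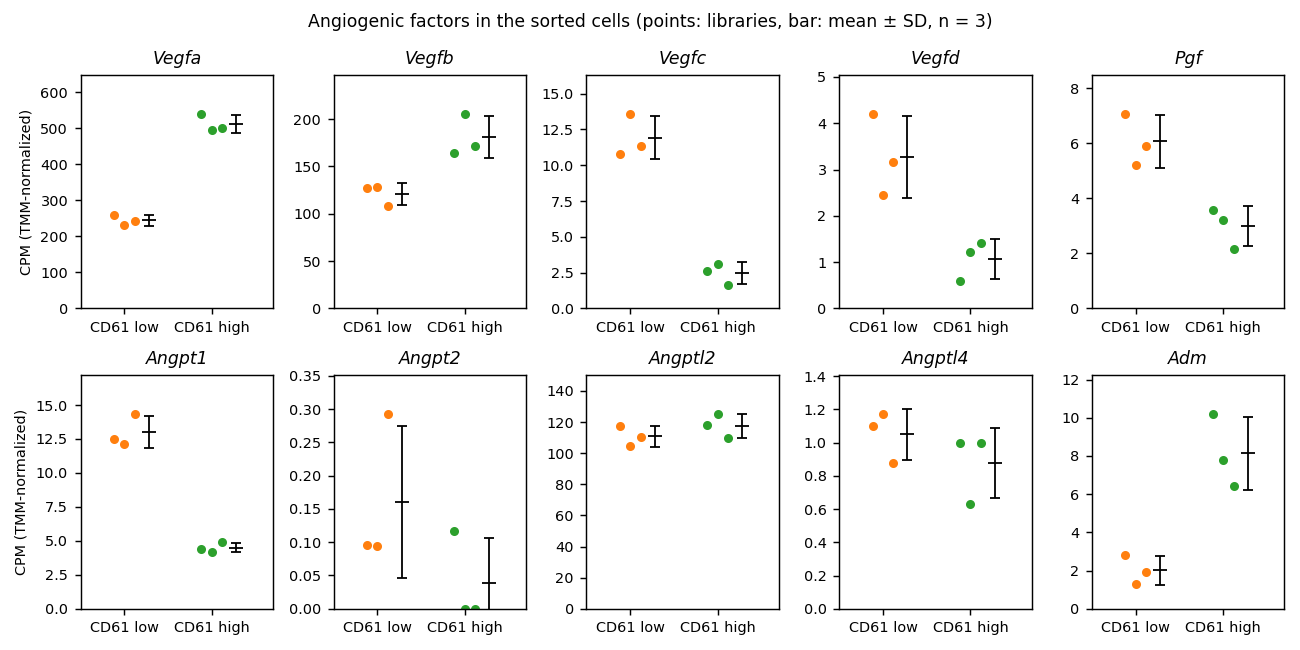
TMM-normalized CPM of each of the 10 genes in the sorted cells, 1 panel per gene with its own axis from 0; points are libraries and the bar is the mean ± SD of 3. *Vegfa*, *Vegfb* and *Adm* are higher in every CD61 high library, *Vegfc*, *Vegfd*, *Pgf* and *Angpt1* are lower, and *Angpt2*, *Angptl2* and *Angptl4* overlap.

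Counted over the members, 9 of the 10 were tested in each comparison, all but *Angpt2*. At day 7 against day 1, 5 were called, 2 higher and 3 lower, where 9.11% of 12725 genes tested were called, 4.49% higher and 4.62% lower. At day 10 against day 1, 3 were called (2 higher and 1 lower, where 10.5% of all genes were called, 6.06% higher and 4.42% lower), and on day 14, 4 were called (2 higher and 2 lower, where 13.4% were called, 7.51% higher and 5.90% lower). Between day 7 and day 10, 2 were called (1 higher and 1 lower, where 2.22% were called, 1.43% higher and 0.786% lower), and between day 10 and day 14, 2 were called (1 higher and 1 lower, where 2.96% were called, 2.09% higher and 0.872% lower). These comparisons share libraries and are not independent. In the sort, 6 were called, 2 higher and 4 lower, where 9.22% of 12077 genes were called, 4.84% higher and 4.38% lower. With library size alone 5 members were called, 1 higher and 4 lower, and the split over all genes turned from 585 higher and 529 lower to 317 higher and 966 lower. The median Log2FC of the tested members was -0.55, -0.18 and -0.52 on days 7, 10 and 14 against day 1 and -0.26 in the sort, beside medians of -0.05, 0.02, -0.03 and 0.0035 over all genes tested. Among differentiation comparisons every gene past the Log2FC limit also passed the adjusted p, so that the size of change alone set these calls.

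**Figure D3:**
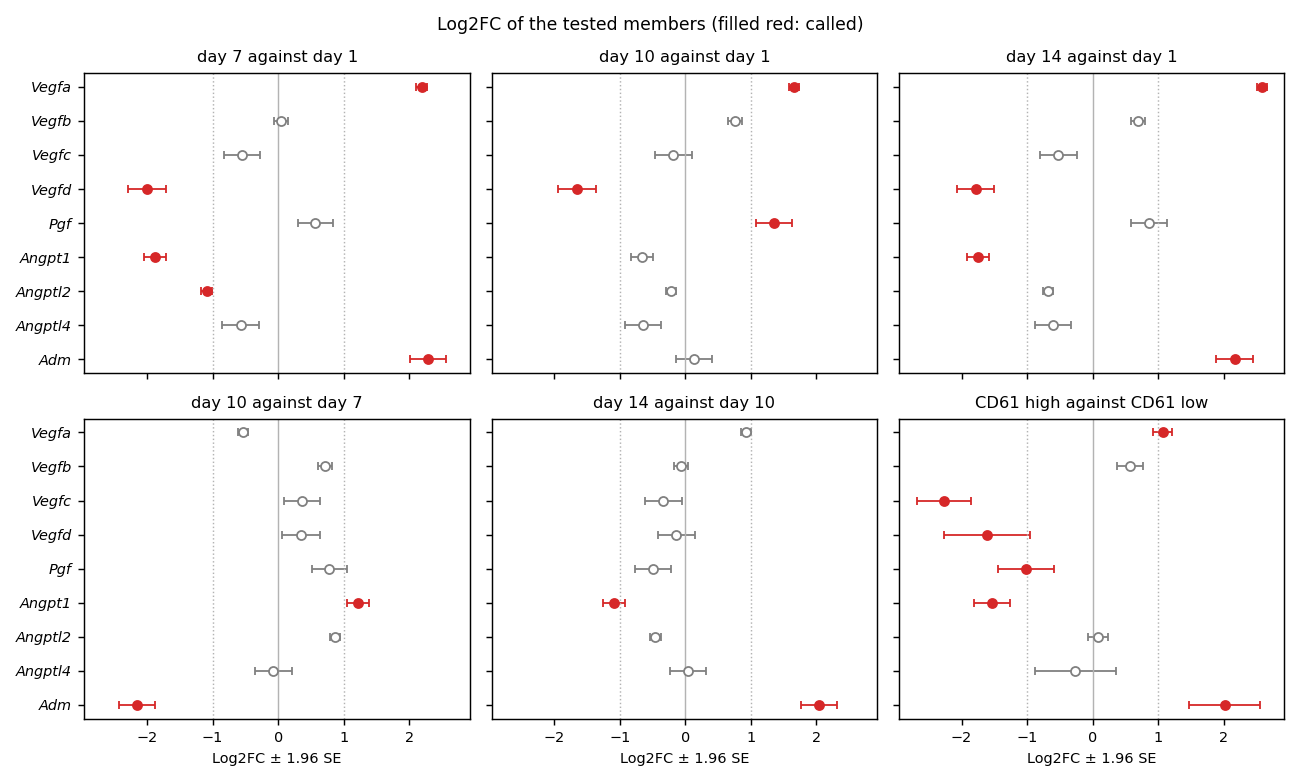
Log2FC with its approximate 95% interval for the 9 tested members in 6 comparisons, filled red where called, with dotted lines at Log2FC of 1 and -1. *Adm* alternates between 2.29, -2.16 and 2.03 over successive days, and *Vegfc* has its largest value, -2.27, in the sort.

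Levels between the members were compared only per length. With the gene lengths of the differentiation table, *Angptl2* led on day 1 at 29.8 CPM per kb, ahead of *Vegfb* at 19.3 and *Vegfa* at 8.76. At day 14 *Vegfa* led at 53.2 CPM per kb, ahead of *Vegfb* at 31.4 and *Angptl2* at 18.5. *Vegfb* led on day 10, at 33.0 CPM per kb against 27.996 for *Vegfa*. Most neighbours in these orders did not overlap between the 2 libraries, but *Vegfd* and *Vegfc* on day 1, *Pgf* and *Angpt1* on day 7, *Angpt1* and *Pgf* and also *Adm* and *Angpt2* on day 10, and *Pgf* and *Adm* on day 14 did. The order depends on the gene lengths. With merged exon lengths of GENCODE M39, 4299 bases in place of 6168 for *Vegfa* and 3255 in place of 1598 for *Vegfb*, *Vegfa* was above *Vegfb* on day 1 (12.6 against 9.46 CPM per kb) and led on day 10 (40.2 CPM per kb against 16.2 for *Vegfb*). *Angptl2* still led on day 1, at 23.9 CPM per kb. In the sort, TPM (scaled by transcript length and library size) put *Vegfa* at 222 ± 29.1 and *Vegfb* at 208 ± 14.5 in CD61 low cells (SD, n = 3), and the libraries overlapped. In CD61 high cells *Vegfa* was at 349.6 ± 34.5 TPM and *Vegfb* at 249 ± 22.9 TPM, without overlap. *Adm* was at 9.73 ± 2.63 TPM in CD61 high cells, rank 4 of the 10.

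**Figure D4:**
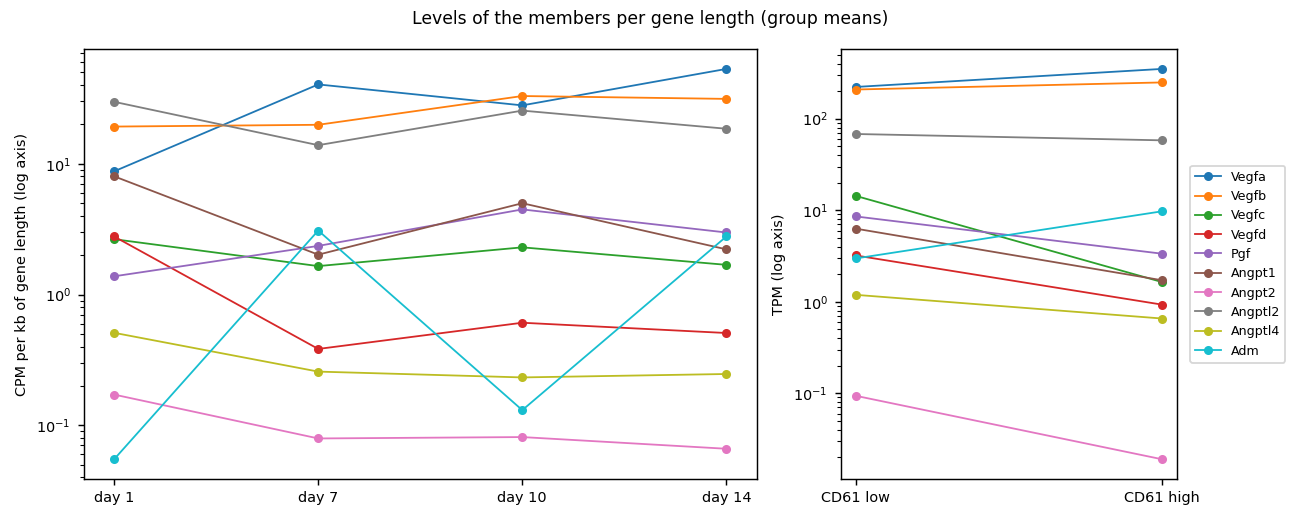
Group means of the 10 genes per length on log axes, CPM per kb of the differentiation table's gene length at left and TPM in the sort at right; lines join the means of each gene. *Vegfa* moves from rank 3 on day 1, at 8.76, to rank 1 on day 14, at 53.2, and *Adm* moves over more than an order of magnitude between days.

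The transcripts of *Vegfa* in the sort were read from Salmon's estimates. 2 transcripts held most of its counts, Vegfa-201 with 438 coding bases (146 codons) and Vegfa-202 with 1104 coding bases (368 codons). Vegfa-202 keeps an exon of 132 bases, 44 codons, that Vegfa-201 skips (chr17:46331917-46332048, GRCm39, minus strand), and its coding sequence is annotated from a start further upstream in the first exon, which both share. This exon is known to code for part of the heparin-binding region, which the shortest VEGF-A lacks. It is printed here as the exon by which the 2 transcripts differ, and the upstream start is a further difference in coding sequence.

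Vegfa-202 exon 6: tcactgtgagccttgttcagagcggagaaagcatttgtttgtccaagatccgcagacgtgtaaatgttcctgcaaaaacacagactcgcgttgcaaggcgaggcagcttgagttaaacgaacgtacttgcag

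Vegfa-201 held 46.3%, 45.3% and 41.5% of *Vegfa* counts in CD61 low and 45.5%, 48.7% and 42.0% in CD61 high libraries. The difference of 1.03 percentage points was smaller than the spread between libraries (exact two-sided permutation test, p = 0.7, where 0.1 is the smallest p that 3 against 3 libraries allow). Vegfa-202 held 47.2 ± 2.51% and 47.5 ± 1.85% (SD, n = 3; exact permutation p = 0.9). Leaving out 1 library moved the difference for Vegfa-201 between -0.61 and 2.73 percentage points. *Vegfb* was split into Vegfb-201 with 84.5 ± 0.247% in CD61 low and 84.9 ± 1.04% in CD61 high cells (SD, n = 3; exact permutation p = 0.9) and Vegfb-202 with most of the rest. These have 621 and 564 coding bases, and Vegfb-201 has 101 coding bases in exon 6 that Vegfb-202 lacks. *Angptl2* counts were 97.5% and 98.1% from Angptl2-201 (exact permutation p = 0.3). With 3 libraries a group these tests cannot give a p below 0.1, so they cannot decide whether transcript shares shifted.

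The receptors of these ligands were read in the same libraries. *Kdr*, the gene for VEGFR2, had a mean of 0 CPM on days 1, 7 and 14 and in CD61 low cells. *Tek*, the gene for Tie2, was at 0.271 CPM or less in every group mean, and *Tie1* at 0.0319 or less. *Flt1*, the gene for VEGFR1, was at 12.5 CPM on day 1 and 5.46 CPM on day 14 and fell (Log2FC -1.07, adjusted p = 6.68e-10), and in the sort it was at 6.75 ± 0.501 CPM in CD61 low and 0.794 ± 0.463 in CD61 high cells (SD, n = 3; Log2FC -3.08, adjusted p = 1.81e-05 in edgeR). *Flt4*, the gene for VEGFR3, fell from 4.56 to 0.938 CPM on day 14 (Log2FC -1.53) and was too low to test in the sort. The co-receptors of VEGF were the abundant ones. *Nrp2* was at 823 CPM on day 1 and 689.8 on day 14 and *Nrp1* at 70.2 and 91.1, neither called. On day 10 *Nrp1* was at 162 CPM and was called higher, against day 1 (Log2FC 1.19, adjusted p = 2.22e-17) and against day 7 (Log2FC 1.26). In the sort *Nrp1* was higher in CD61 high cells (39.1 against 102.6 CPM, Log2FC 1.39, adjusted p = 8.68e-06), and *Nrp2* had a Log2FC of 0.80. Of the 7 receptor genes, 4 were tested on day 14 against day 1, with 0 higher and 2 lower, where 7.51% and 5.90% of all genes were. On day 10 against day 1, 1 was higher and 2 were lower, where 6.06% and 4.42% of all genes were. In the sort 3 were tested, with 1 higher and 1 lower, where 4.84% and 4.38% were.

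The adrenomedullin receptor is *Calcrl* with *Ramp2* or *Ramp3*. *Calcrl* was at 0.475 CPM or less in every group mean and *Ramp3* at 0.0583 or less, while *Ramp2* was at 2.12 CPM on day 1 and 2.00 on day 14 (Log2FC -0.05, adjusted p = 0.735). *Ramp1*, which forms a calcitonin gene-related peptide receptor with *Calcrl*, rose from 6.94 to 313 CPM on day 14 (Log2FC 5.30, adjusted p = 3.13e-31), with 185 CPM on day 7 and 80.5 CPM on day 10, and was higher in CD61 high cells (27.1 against 82.5 CPM, Log2FC 1.61). *Ackr3*, a decoy receptor for CXCL12 that also binds adrenomedullin, went from 3.26 to 271 CPM (Log2FC 6.01, adjusted p = 2.22e-30) and was higher in CD61 high cells too (Log2FC 1.60, adjusted p = 7.69e-06).

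Genes next to the members in function were counted from lists. Of 28 HIF target genes outside angiogenesis, all tested, 21 were higher on day 7, 17 on day 10 and 22 on day 14 than on day 1 and 0 were lower, with median Log2FC of 1.90, 1.27 and 2.45. From day 7 to day 10, 0 rose and 4 fell, and from day 10 to day 14, 16 rose and 0 fell, where 1.43% of all genes rose and 0.786% fell in the first step and 2.09% rose and 0.872% fell in the second. In the sort 14 were higher in CD61 high cells and 0 lower, with a median Log2FC of 0.97. With scaling by library size alone, an alternative chosen for these lists with the data in view, 5 were higher and 1 lower with a median of 0.67, where 2.63% of all genes were higher and 8.02% lower. Beside these, 4.49%, 6.06% and 7.51% of all genes were called higher on days 7, 10 and 14 and 4.84% in the sort. *Ndufa4l2*, a mitochondrial complex I associated gene, was at 3.97, 319, 207 and 458 CPM over the 4 days, and *Ldha*, lactate dehydrogenase, at 494, 2447, 1606 and 2619 CPM. *Egln3*, an oxygen-sensing prolyl hydroxylase, was at 2.59, 87.2, 46.4 and 449.9 CPM, and *Slc2a3*, a glucose transporter, had the largest increase in the sort (Log2FC 2.24, adjusted p = 1.4e-06). *Eno1*, a glycolytic enzyme with the highest mean CPM of the list over the 6 sorted libraries, averaged 1561 CPM with low and 2457 CPM with high CD61 (Log2FC 0.65, not called). The levels of *Eno1* and *Ldha* are uncertain, since genes with near-identical processed copies can lose or share reads in counting.

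Of 17 PPAR target genes, 12 were tested. Of these, 1 was called higher on day 14 and 0 lower, where 7.51% and 5.90% of all genes were. On day 7 against day 1, 0 were higher and 2 lower, where 4.49% and 4.62% of all genes were. These were *Cpt1a* (Log2FC -1.10) and *Pdk4* (Log2FC -1.38), and *Pdk4* rose again from day 7 to day 10 (Log2FC 1.39). In the sort 2 were higher and 1 lower, where 4.84% and 4.38% of all genes were, among them *Pdk4*, an inhibitor of pyruvate dehydrogenase (14.8 against 30.5 CPM, Log2FC 1.04), and *Acot2*, a mitochondrial thioesterase (64.2 against 23.0 CPM, Log2FC -1.48). With library size alone 0 were higher and 1 lower (*Pdk4* Log2FC 0.74). *Hadha*, the most abundant of the list, was at 156 CPM on day 1 and 108 on day 14 and was not called. Of 10 other angiopoietin-like and lipase genes, 4 were tested. On day 14, 2 were higher and 1 lower, where 7.51% and 5.90% of all genes were. *Angptl6* rose from 5.52 to 23.9 CPM (Log2FC 1.94), and *Lmf1*, a lipase maturation factor, was at 28.2 and 43.5 CPM without a call. In the sort 3 were tested, with 1 higher and 0 lower, again beside 4.84% and 4.38% of all genes. Called but under an average of 5 CPM, and named after their values were seen, were *Ucp2*, a mitochondrial carrier gene on the PPAR list (1.39 CPM on day 1 and 6.46 on day 14, higher in the sort too), and the lipase genes *Lipc* (0.0304 and 8.74 CPM, higher in the sort too) and *Lipg* (4.81 and 0.411 CPM).

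Of 20 other secreted factors that promote vessel growth, 13 were tested on day 14, with 2 higher and 4 lower, where 7.51% and 5.90% of all genes were. *Apln*, the ligand of the apelin receptor, rose from 26.1 to 157 CPM (Log2FC 2.54, adjusted p = 6.82e-25) and was higher in CD61 high cells (74.8 against 196 CPM, Log2FC 1.39). *Ccn1*, a matricellular protein gene, rose from 218 to 526 CPM on day 14 (Log2FC 1.27). *Ptn*, pleiotrophin, fell from 98.8 to 14.5 CPM (Log2FC -2.68), and *Cxcl12*, a chemokine, fell from 282 to 70.9 CPM (Log2FC -1.98). On day 7 against day 1, 1 was higher and 6 lower, among them *Ccn2* (Log2FC -1.47), where 4.49% and 4.62% of all genes were. From day 10 to day 14, 3 were higher and 0 lower, where 2.09% and 0.872% of all genes were. In the sort 2 were higher and 3 lower, where 4.84% and 4.38% of all genes were. *Ccn2* was higher there (Log2FC 1.13, and 0.83 without a call with library size alone) and *Cxcl1* lower (16.4 against 1.83 CPM, Log2FC -3.17). Of 16 secreted inhibitors of angiogenesis, 11 were tested and 0 were called higher in any of the 6 comparisons, a count near the 1.43% to 7.51% of all genes called higher in them. At day 14, 6 were lower, where 5.90% of all genes were lower, and in the sort 5 were lower, where 4.38% were. *Thbs2*, thrombospondin-2, fell from 523 to 104.2 CPM (Log2FC -2.32), *Cxcl10* from 19.3 to 1.35 CPM (Log2FC -3.11) and *Sema3a* from 150 to 31.4 CPM (Log2FC -2.22). *Sema3a* and *Cxcl10* were also lower in CD61 high cells, by Log2FC of -2.68 and -3.80. *Thbs1*, the most abundant inhibitor, was at 1739 and 1237 CPM on days 1 and 14 and was not called, and in the sort it had a Log2FC of 0.88.

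**Figure D5:**
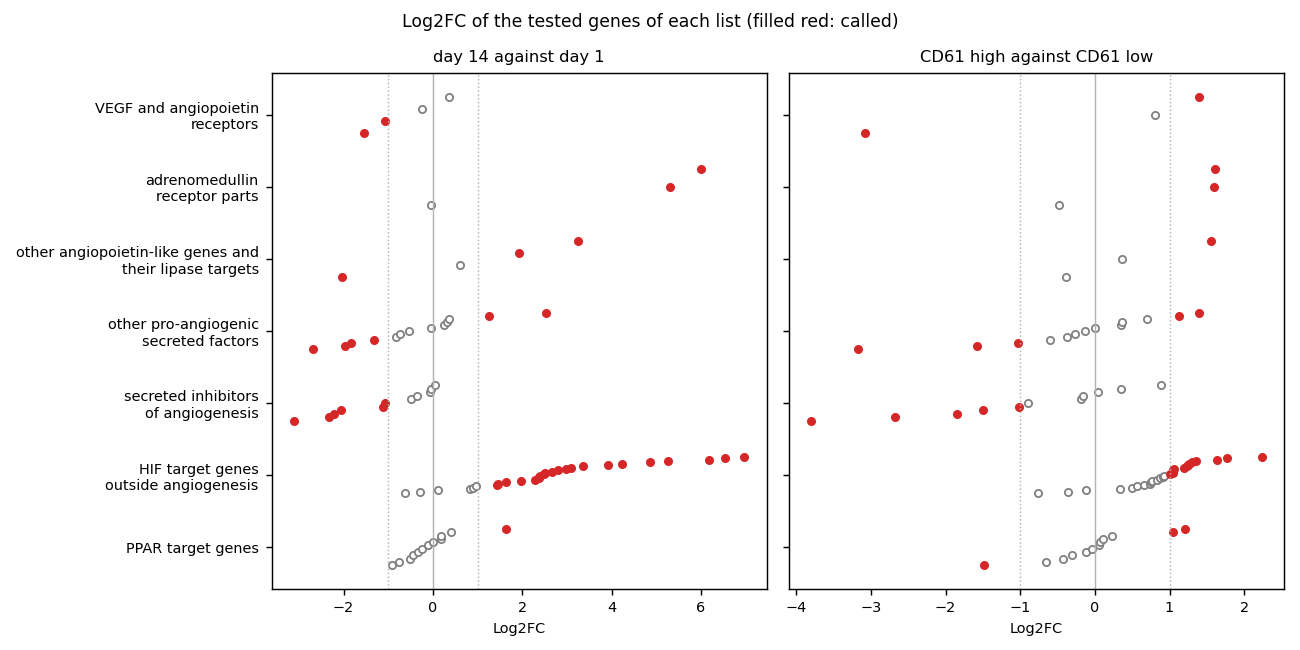
Log2FC of each tested gene of 7 lists on day 14 against day 1 (left) and in CD61 high against CD61 low cells (right); each point is a gene, filled red where called, with dotted lines at Log2FC of 1 and -1. The HIF targets lie mostly to the right in both, with 22 and 14 of 28 called higher, where 7.51% and 4.84% of all genes were. With library size alone 5 were higher in the sort, where 2.63% of all genes were. No secreted inhibitor of the 11 tested is called higher, a count near these shares.

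The genes whose profile over the 8 differentiation libraries was most like that of a member were found by Pearson's r on log2(CPM + 1) among 10313 genes. For *Vegfa* these were *Ramp1* (r = 0.999), *Leprel1* (0.999) and *Tpi1* (0.999), the last a glycolytic enzyme at 351, 1415, 1019 and 1963 CPM over the 4 days. For *Vegfb* they were *Smad9* (0.997), *Pdgfd* (0.997) and *Osbpl1a* (0.996), for *Angpt1* they were *Il6st* (0.996), *Qsox1* (0.996) and *Clcn5* (0.994), and for *Angptl2* they were *Apol9a* (0.996), *Arhgef19* (0.994) and *Aldh3a1* (0.993). The 8 points share 4 days and their 2 replicates, so these coefficients describe a common order of days and are no test.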

How the data were processed

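Poly(A) RNA of 14 Ocy454 libraries was sequenced, and samples were grouped by their labels. Per the authors, STAR and HTSeq produced the counts of the differentiation libraries, which they deposited as CPM values, of which 100% were whole multiples of 1 read within 0.01. For the sort the authors ran Salmon (GRCm39, release 104) and deposited estimated counts and TPM per transcript. The genome build of the differentiation table is not given in the sources used here. Estimated counts were summed per gene with GENCODE M39, which matched 115556 of 116747 transcripts and 99.3% to 99.4% of counts, and rounded to whole numbers.

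CPM values were compared with limma 3.58.1 (eBayes with a trend) on log2(CPM + 1) over all 8 libraries, where any library exceeded 1 CPM. Sorted libraries were compared with edgeR 4.0.16 (quasi-likelihood test, TMM over all genes, at least 5 normalized counts in all 6 libraries) in R 4.3.3. All p-values were adjusted by Benjamini-Hochberg over all genes tested. Both tests were also run on simulated data with a fixed spread and changes well past the Log2FC limit. That run says nothing about calls near the limit. Counts per library were 27518605 to 34311238 and 18815602 to 19220064, and intervals and floors (3 counts) cover counting error only. CPM in the 2 experiments come from different counting and RNA kits, so no level was compared between them. Promoter sequences were taken from RefSeq on GRCm38.p6, where 7 of the 10 genes matched, and exons from GENCODE M39 on GRCm39.

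Alternatives were a pseudocount of 0.1, no filter or a mean of at least 5 CPM, TMM scaling, edgeR and DESeq2 1.42.0 on the recovered reads, an adjusted p limit of 0.05, a block for replicate number, RLE factors, library size alone, TMM after the filter, transcript shares from TPM, and each library left out. Named were the 10 genes, every receptor gene, in each other list the most abundant gene and the 2 largest called increases and decreases among genes that averaged 5 CPM or more and whose groups did not overlap, the 3 genes most like each member that averaged 5 CPM or more, and marker genes. The members and lists were chosen with earlier results of these data known. For the sort the study's methods give 3 groups of cells collected separately. For differentiation they call the replicates biologic without saying more, so there p-values measure the spread between these libraries, which may be technical. Python 3.11.15, pandas 2.3.3 and matplotlib 3.10.9 were used.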

Additional observations from a re-analysis of the deposited data

How the results depend on the processing

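Of the values of single members' Log2FC recomputed under the alternatives, 366 equalled the original, mostly in differentiation where many settings cannot move a Log2FC, and say nothing about stability. Of the other 464, 446 kept direction and call, 5 turned sign, 9 gained a call and 4 lost one. Of the counts and shares, 123 equalled the original, 100 stayed within the limit set for them and 16 did not. Requiring an average of 5 CPM left 4 members to test. Of these, 3, 1 and 2 were called at days 7, 10 and 14 against day 1. From day 7 to 10 and from day 10 to 14, 1 each was called. Without this filter 9.11%, 10.5%, 13.4%, 2.22% and 2.96% of 12725 genes were called in these comparisons, in the same order. The shares of all genes with the filter are not shown, so these counts of 4 members are a description only. Genes called from day 7 to day 10 went from 282 to 552 with a pseudocount of 0.1, 550 with edgeR and 477 with DESeq2 on the recovered reads, and from day 10 to day 14 from 377 to 671, 730 and 638. The cause was not tested. Leaving out each library in turn gave 1 to 2 members called from day 10 to day 14, the lower without day 14 replicate 2. It also turned the sign of values that were not called, with ranges of -0.40 to 0.032 for *Vegfc* at day 10 against day 1, and, from day 10 to day 14, -0.32 to 0.046 for *Vegfd* and -0.037 to 0.12 for *Angptl4*. Without day 10 replicate 1 the first and last of these turned. Scaling the sort by library size alone turned *Angptl2* to -0.21, ended the call of *Vegfa* (0.77), and left 5 HIF targets higher in place of 14 and 1 lower in place of 0, 0 PPAR targets higher in place of 2, and 1 other secreted factor higher in place of 2. *Angptl4* passed the limit at day 14 against day 1 with edgeR (-1.03) and DESeq2 (-1.03) on reads.

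Both gates of the sort came from the same 3 groups of cells, but no label says that the replicate numbers mark them, and correlations between same-numbered libraries of -0.32, 0.22 and -0.06 did not settle it. With the replicate number as a block, 1083 genes in place of 1114 and the same number of members, 6, were called in the sort. In the balanced differentiation design the block leaves every Log2FC as it is, so the counts of 1159, 1334, 1707, 282 and 377 genes could not change and say nothing of pairing. Leaving out day 10, an alternative added after the data had been seen, likewise cannot move the members' Log2FC on days 7 and 14. With 2 replicates a day and few reads, the values of *Angpt2* and *Angptl4* and of *Adm* at days 1 and 10 are limited by depth.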
